A study of Drosophila melanogaster with 6 samples.

Results

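Hemocytes are the blood cells of the fly, and 10 genes of their fate and of phagocytosis were followed here: srp, ush, gcm, Pvr, Pxn, Hml, crq, drpr, NimC4 and NimC1. They were chosen by name, and all 10 were found among the 10526 genes of the deposited limma-voom result table, which leaves none reported as not kept. RNA was sequenced from Drosophila melanogaster embryos aged 10 to 15 h of 2 homozygous lines in which CRISPR-Cas9 had been used to change shaggy (sgg). This gene encodes glycogen synthase kinase 3 of the fly. The mutant line, sgg[isoD-CI-DS-SFS], has both consensus caspase recognition sites of the isoform altered (n = 3 embryo collections), and the control line, sgg[isoD-DS-SFS], has them intact (n = 3 embryo collections). Both lines carry the same N-terminal DsRed fluorescent protein and internal StrepII-Flag-StrepII affinity tag, so neither is an untagged wild type. Each line is 1 stock, and the caspase-site changes cannot be told apart from other differences between the stocks. Whether collections with the same number were handled together is not stated in the labels, and p-values measure the spread between these collections.

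In the embryo, hemocytes arise from head mesoderm under the GATA factor Serpent, most become plasmatocytes under Glial cells missing, and a small number become crystal cells. Plasmatocytes migrate through the whole embryo along sources of PDGF/VEGF-related ligands, lay down extracellular matrix, and engulf dying cells through receptors such as Croquemort, Draper and NimC4 (also called Simu). Cell death by apoptosis is carried out by caspases, the proteases whose recognition sites were altered in the mutant Shaggy. Several of these genes are used outside the blood as well: gcm, drpr and NimC4 in glia, srp in fat body and endoderm, and ush in amnioserosa. In whole embryos, fewer cells of a type and less RNA per cell cannot be told apart.

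The mutant libraries held 15160388, 15641368 and 15487152 counted reads, and the control libraries held 12646077, 19454630 and 17992076. Libraries of the same line had a Pearson's r of 0.984 to 0.992 in log2 CPM (CPM, a gene's reads relative to the normalised library size) across the tested genes, which are not independent replicates. The engineered gene, sgg, was at 306 ± 2.77 CPM in the mutant line and 302 ± 15.5 CPM in the control line (SD, n = 3 each), and its count covers all transcripts. Each of the 10 hemocyte genes had at least 45 reads in every library. Genes were tested with edgeR's quasi-likelihood test across all 10526 genes, and a gene was called at an adjusted p under 0.05. The test called 2350 genes (22.3%), 1437 higher and 913 lower in the mutant line, or 1268 higher and 1272 lower when libraries were scaled by their totals alone.

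Of the 10 hemocyte genes, 3 were called, and all 3 were lower in the mutant line: NimC4, gcm and ush. Without mutant collection 1, or without mutant collection 3, 1 of the 10 was called, NimC4. Those 2 fits also called fewer of all genes, 1395 and 1295, against 2350. With all 6 libraries, 8.67% of all genes were called lower and 13.7% higher. No hemocyte gene was called higher by edgeR. In that direction 3 had an unadjusted edgeR p under 0.05 (srp, Hml and NimC1), a criterion not counted over all genes. By limma-voom none of the 10 was called higher, against 1482 of all genes. The DESeq2 Wald test called 1 of the 10 higher, against 1414 of all genes. The median log2 fold change, mutant over control, was 0.06 over the 10 genes and -0.01 over all genes tested, with single genes between -0.82 and 1.01. The 3 mutant values did not overlap the 3 control values for 6 of the 10 genes, against 41.9% of all genes. Of these, 3 were higher and 3 lower in mutants, against 21.9% and 20.0% of all genes. The 10 genes together summed to 687 to 748 CPM in mutant libraries and 743 to 782 CPM in control libraries, ranges that overlap. In the authors' deposited table the same number of hemocyte genes, 3, had an adjusted p under 0.05, all higher in the control line, against 22.6% of all genes there. Per kilobase of exon, NimC4 had the highest mean level of the 10 in both lines (32.7 CPM per kb in mutants, 57.9 in controls) and Hml the lowest (0.549 in mutants, 0.281 in controls).

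**Figure D1:**
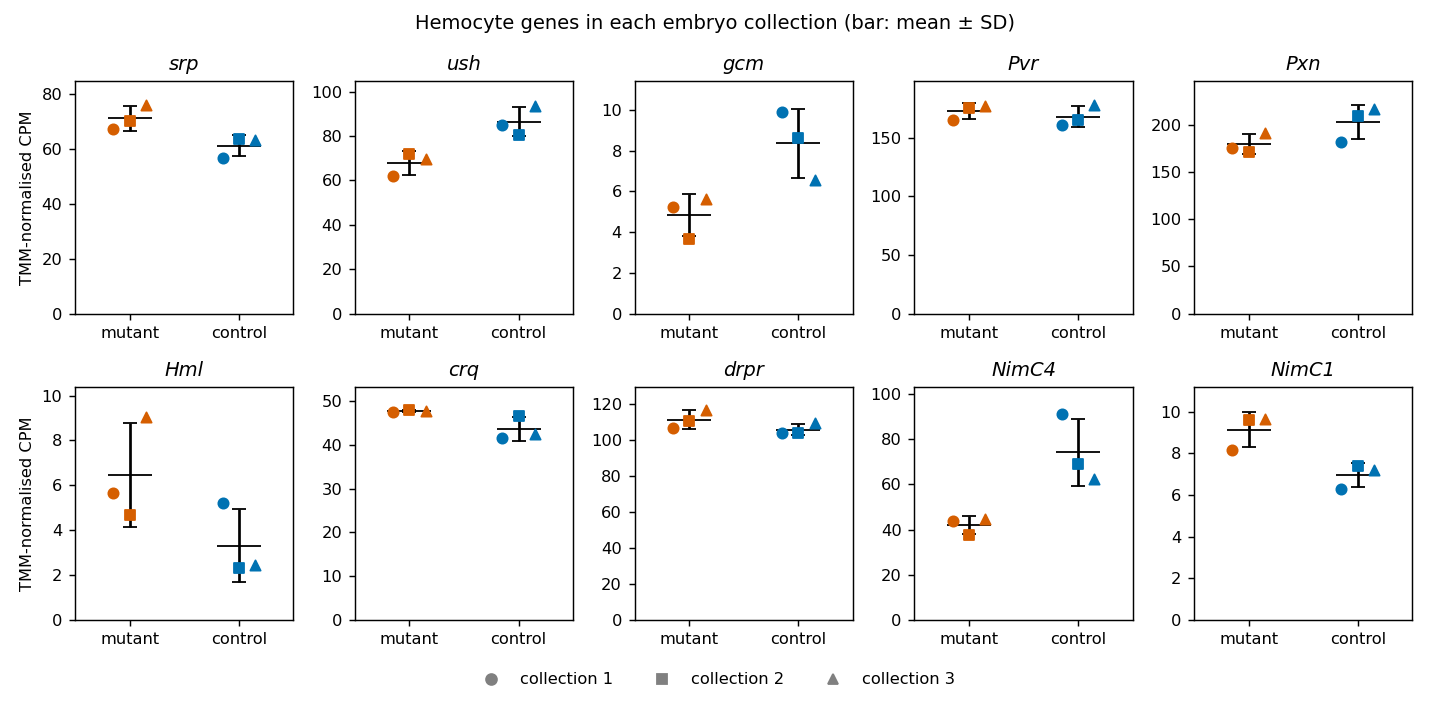
Normalised expression (TMM-normalised CPM, axes from 0) of each hemocyte gene in the mutant line (orange, left) and the control line (blue, right), with 1 point per embryo collection and a bar for mean ± SD (n = 3). NimC4 sits between 37.4 and 44.7 CPM in mutants and between 62.4 and 91.0 CPM in controls, while Pvr and drpr overlap between the lines.

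The fate regulators were examined first. Serpent is the GATA factor that specifies the hemocyte lineage. Expression of srp (FBgn0003507; BDGP6, 3R, 15986152 to 16004085, forward strand) was 67.2, 70.0 and 76.0 CPM in mutant collections 1, 2 and 3, against 56.6, 63.7 and 63.3 CPM in control collections 1, 2 and 3. All mutant values lay above all control values, by a narrow margin. The log2 fold change of 0.21 (standard error 0.08) did not pass the threshold, with an edgeR adjusted p of 0.0855, and its 95% interval allowed a 1.02- to 1.31-fold higher level in mutants. The lncRNA CR44133 shares 938 exon bases with srp on the same strand and had 8 to 35 reads in a library, against 720 or more for srp.

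U-shaped, the product of ush (FBgn0003963; BDGP6, 2L, 476220 to 540560, forward strand), is a zinc-finger protein of the FOG family that binds GATA factors and limits crystal cell formation. It was at 61.9, 72.1 and 69.7 CPM in mutant collections 1, 2 and 3, and at 85.1, 80.6 and 93.6 CPM in control collections 1, 2 and 3. The groups did not overlap. Expression fell to 67.9 ± 5.30 CPM in mutants, against 86.4 ± 6.62 CPM in controls (SD, n = 3 each). Its log2 fold change was -0.35 (standard error 0.09; adjusted p 0.0215, edgeR). The call was lost without mutant collection 1 (adjusted p 0.0677 in edgeR's test), mutant collection 3 (0.0610) or control collection 3 (0.0553), with estimates from -0.41 to -0.29 over the 6 fits that each left out a library.

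Glial cells missing is the transcription factor that directs plasmatocyte fate and, in the nervous system, glial fate. The gene gcm (FBgn0014179; BDGP6, 2L, 9579498 to 9581745, reverse strand) was sparsely expressed, with 79, 56 and 86 reads in mutant libraries 1, 2 and 3, and 126, 169 and 121 reads in control libraries 1, 2 and 3. After normalisation these were 5.24, 3.69 and 5.61 CPM in mutants and 9.91, 8.63 and 6.54 CPM in controls. Mutant values were all below control values, although mutant collection 3 and control collection 3 came within 1 CPM of each other. The mean fell to 4.85 ± 1.02 CPM in mutants, against 8.36 ± 1.70 CPM in controls (SD, n = 3 each), or -0.78 on the log2 scale (standard error 0.22; adjusted p 0.0349, edgeR). This call was lost in 5 of the 6 fits that left out a library, without mutant collection 1, 2 or 3 or control collection 1 or 2 (edgeR adjusted p at most 0.0901), and held without control collection 3 (0.0236). The estimate stayed between -0.94 and -0.61 in those fits.

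The paralogue gcm2, which acts with gcm in these lineages, lies 26.8 kb from it on 2L. It was at 3.45, 2.57 and 2.67 CPM in mutant collections and 5.35, 4.75 and 3.89 CPM in control collections, again with no overlap. Its log2 fold change of -0.68 (standard error 0.22) did not pass the threshold, with an edgeR adjusted p of 0.0545. The number of gcm reads per gcm2 read was 1.68 ± 0.360 in mutants and 1.78 ± 0.0910 in controls (SD, n = 3 each), a difference within the spread of the mutant collections. The list median was -0.29 over 8 GATA factors and other lineage regulators listed with it. Among them 2 were called, both lower in the mutant line, against 8.67% of all genes called lower. These were zfh1, a zinc-finger factor of mesoderm and hemocytes (133 ± 7.71 CPM in mutants, 161 ± 6.88 CPM in controls; adjusted p 0.0226, edgeR), and twi, the mesoderm regulator Twist (6.69 ± 1.13 CPM in mutants, 9.84 ± 0.753 CPM in controls; adjusted p 0.0378, edgeR; SD, n = 3 each). The call of zfh1 was lost without mutant collection 1 or 3 or control collection 3 (largest edgeR adjusted p 0.0678), and that of twi held only without mutant collection 3 (0.0982 at most in the others, edgeR). The GATA genes GATAe and pnr follow srp on 3R within 22.0 kb, and neither was called, with log2 fold changes of -0.11 and -0.31 beside 0.21 for srp.

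**Figure D2:**
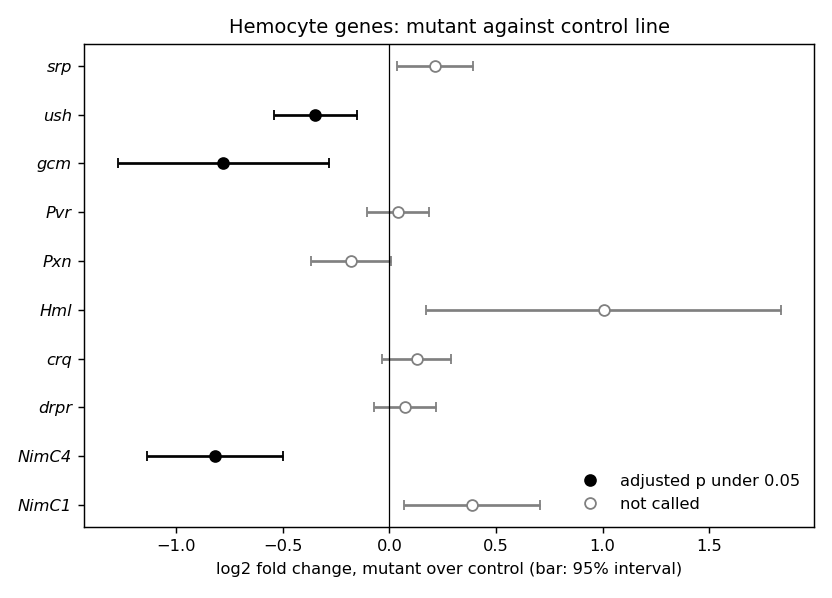
Log2 fold change, mutant over control, of each hemocyte gene (point) with its 95% interval (bar) from edgeR's quasi-likelihood fit; filled points are called at an adjusted p under 0.05. The 3 called genes lie at -0.35 (ush), -0.78 (gcm) and -0.82 (NimC4), and Hml, at 1.01, has the widest interval.

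The migration receptor and the secreted products of plasmatocytes came next. Pvr (FBgn0032006; BDGP6, 2L, 8220980 to 8239878, reverse strand), the receptor tyrosine kinase for PDGF/VEGF-related ligands in hemocyte migration and survival, was at 165, 176 and 177 CPM in mutant collections 1, 2 and 3, and 161, 165 and 178 CPM in control collections 1, 2 and 3. The groups overlapped fully. The gene was not called (adjusted p 0.699, edgeR), the 95% interval of the fold ran from 0.928 to 1.14, and the estimate of 0.04 on the log2 scale turned to -0.0021 when libraries were scaled by their totals alone. Among 10 genes of its ligands and downstream signalling, 1 was called higher and 1 lower in the mutant line, against 13.7% and 8.67% of all genes. The list median was -0.16. The ligand gene Pvf1 was at 65.3, 57.9 and 55.7 CPM in mutant collections 1, 2 and 3, and 29.5, 44.0 and 41.6 CPM in control collections 1, 2 and 3. It rose to 59.6 ± 5.03 CPM in mutants, against 38.4 ± 7.79 CPM in controls (SD, n = 3 each; log2 fold change 0.63, adjusted p 0.0157, edgeR), a call lost without mutant collection 1 (edgeR adjusted p 0.0672). The other ligand genes, Pvf2 and Pvf3, had log2 fold changes of -0.12 and -0.18 with edgeR adjusted p of 0.620 and 0.0707. The MAP kinase gene rl fell to 110 ± 3.65 CPM in mutants, against 158 ± 10.5 CPM in controls (SD, n = 3 each; log2 fold change -0.52, adjusted p 0.00216, edgeR).

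Pxn (FBgn0011828; BDGP6, 3L, 2601455 to 2630064, reverse strand) encodes peroxidasin, a secreted peroxidase of the extracellular matrix and a common plasmatocyte marker. It was at 176, 171 and 191 CPM in mutant collections 1, 2 and 3, and 182, 210 and 217 CPM in control collections 1, 2 and 3. Mutant collection 3 exceeded control collection 1, so the groups overlapped, and the log2 fold change, -0.18 with a standard error of 0.08, was not called (edgeR adjusted p 0.150). Without control collection 1, the lowest of the control values, it was -0.25 with an edgeR adjusted p of 0.0351.

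Hemolectin, the product of Hml (FBgn0029167; BDGP6, 3L, 13846054 to 13860001, forward strand), is a large clotting protein and a marker used mainly for larval hemocytes. Its reads numbered 85, 71 and 139 in mutant libraries 1, 2 and 3, against 66, 45 and 45 in control libraries 1, 2 and 3. In CPM these were 5.64, 4.67 and 9.06 in mutants and 5.19, 2.30 and 2.43 in controls. Mutant collection 3 and control collection 1 stood well above the others of their lines, and control collection 1 exceeded mutant collection 2. The log2 fold change, 1.01 with a standard error of 0.36, was not called (edgeR adjusted p 0.0823), and the 95% interval of the fold ran from 1.13 to 3.58. The estimate was 1.45 without control collection 1 (adjusted p 0.0128) and 0.67 without mutant collection 3 (adjusted p 0.275), both by edgeR, and the DESeq2 Wald test on all libraries gave an adjusted p of 0.0288.

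Other plasmatocyte products, listed apart from the 10 genes, were higher in the mutant line where they were called. Of 11 such genes 9 were tested and 5 were called, all higher, against 13.7% of all genes called higher, with a list median of 0.41. The type IV collagen genes Col4a1 and vkg, which lie head to head on 2L, were at 3435 ± 174 and 1927 ± 109 CPM in mutants, against 2416 ± 331 and 1446 ± 215 CPM in controls (SD, n = 3 each). SPARC, a collagen-binding matrix protein, was at 544 ± 7.42 CPM in mutants and 428 ± 25.6 CPM in controls, and Glt, which encodes the basement membrane protein glutactin, was at 691 ± 21.8 CPM in mutants and 507 ± 50.6 CPM in controls (SD, n = 3 each). The scavenger receptor gene Sr-CI was at 11.9 ± 0.786 CPM in mutants and 7.30 ± 1.22 CPM in controls (SD, n = 3 each). The log2 fold changes were 0.51, 0.41, 0.35, 0.45 and 0.70 for Col4a1, vkg, SPARC, Glt and Sr-CI, with edgeR adjusted p from 0.00624 to 0.0245. The matrix genes Ppn and Tig, at -0.04 and -0.06 with edgeR adjusted p of 0.767 and 0.599, were not called. Nor were the sparsely counted scavenger receptor genes Sr-CII and Sr-CIV, at -0.77 and 0.83 with edgeR adjusted p of 0.330 and 0.259. Calls of Col4a1, SPARC and Glt held in all 6 fits that left out a library, that of Sr-CI was lost without mutant collection 3 (edgeR adjusted p 0.0565), and that of vkg without mutant collection 1 or 3 or control collection 2 (at most 0.109, edgeR). Fat body and other tissues also express the collagen genes, and their part in these totals was not tested.

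The apoptotic-cell receptors were compared next. Croquemort, a scavenger receptor of the CD36 family, is encoded by crq (FBgn0015924; BDGP6, 2L, 448254 to 453024, reverse strand). It was at 47.5, 48.0 and 47.8 CPM in mutant collections 1, 2 and 3, and 41.6, 46.7 and 42.6 CPM in control collections 1, 2 and 3. The mutant collections were nearly alike and lay just above the highest control. The log2 fold change, 0.13 with a standard error of 0.07, was not called (edgeR adjusted p 0.228), with a 95% interval of 0.978 to 1.22 on the fold. Exons of ex lie opposite 448 bases of crq, at a log2 fold change of -0.26 that was not called either.

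Draper, the receptor that triggers engulfment in hemocytes and glia, is encoded by drpr (FBgn0027594; BDGP6, 3L, 1715595 to 1731107, reverse strand). It was at 107, 110 and 117 CPM in mutant collections 1, 2 and 3, and 104, 104 and 109 CPM in control collections 1, 2 and 3. The groups overlapped, and the log2 fold change, 0.07 with a standard error of 0.06, was not called (edgeR adjusted p 0.447), with a 95% interval of 0.952 to 1.16 on the fold. The list median was -0.04 over 15 genes acting with Draper or in later steps of engulfment. Of these 2 were called, both lower by a small amount, against 8.67% of all genes called lower. These were prtp, a Draper ligand from the endoplasmic reticulum (log2 fold change -0.21, adjusted p 0.0375, edgeR), and Ced-12, a partner in Rac activation (log2 fold change -0.28, adjusted p 0.0460, edgeR). Each was called in 1 of the 6 fits that left out a library, prtp without mutant collection 2 and Ced-12 without mutant collection 1, with edgeR adjusted p of at most 0.0944 and 0.128.

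NimC4 fell in the mutant line. Its product binds phosphatidylserine on dying cells and tethers them to the hemocyte or glial cell, upstream of Draper. The gene (FBgn0260011; BDGP6, 2L, 14047582 to 14048863, forward strand) shares no exon with another gene in that annotation. It had 660, 569 and 685 reads in mutant libraries 1, 2 and 3, against 1158, 1356 and 1155 reads in control libraries 1, 2 and 3. Normalised, this was 43.8, 37.4 and 44.7 CPM in mutants and 91.0, 69.2 and 62.4 CPM in controls. The lines were well apart, and control collection 1 stood above the other control collections. Expression fell to 42.0 ± 3.94 CPM in mutants, against 74.2 ± 14.9 CPM in controls (SD, n = 3 each). This is -0.82 on the log2 scale (standard error 0.14; adjusted p 0.00528, edgeR). On the linear scale the mutant level was 0.567 times the control level (95% interval 0.454 to 0.707). The call held whichever of the 6 libraries was left out, with edgeR adjusted p of at most 0.0213, and without control collection 1 the estimate was -0.65. The authors' deposited table lists NimC4 at 0.79 for control over mutant on the log2 scale (adjusted p 0.00595, limma-voom), and log2 CPM of 5.46, 5.23 and 5.49 in mutants and 6.51, 6.12 and 5.97 in controls.

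Ratios of reads within a library do not depend on how libraries are scaled, and several were taken after the values had been seen, as descriptions with no test. NimC4 had 0.411, 0.339 and 0.382 reads per drpr read in mutant libraries 1, 2 and 3, and 0.877, 0.665 and 0.572 in control libraries 1, 2 and 3. The mutant ratios were all below the lowest control ratio. PPO2, a crystal cell enzyme, had 1.05 ± 0.144 reads per Pxn read in mutants and 1.62 ± 0.320 in controls (SD, n = 3 each). Col4a1 went the other way, with 19.2 ± 0.745 reads per Pxn read in mutants and 11.9 ± 0.591 in controls (SD, n = 3 each).

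**Figure D3:**
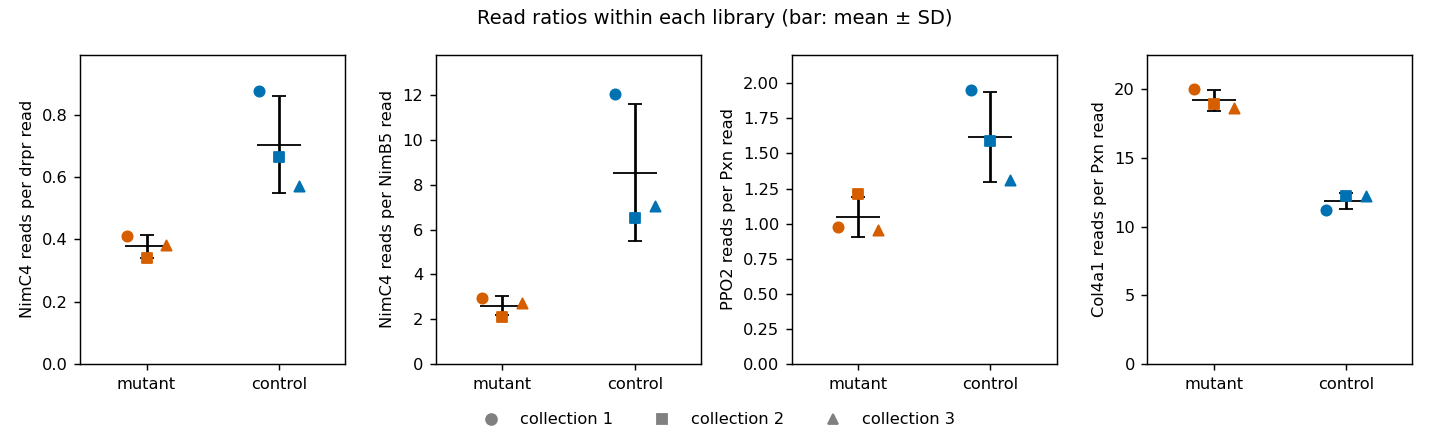
Reads of one gene per read of another within each library, in the mutant line (orange, left) and the control line (blue, right), with 1 point per embryo collection and a bar for mean ± SD (n = 3); axes start at 0. NimC4 per drpr, NimC4 per NimB5 and PPO2 per Pxn are below every control value in the mutant libraries, and Col4a1 per Pxn is above every control value.

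NimC1 (FBgn0259896; BDGP6, 2L, 13973158 to 13976769, reverse strand) encodes a plasmatocyte receptor for bacteria, known in larvae as the P1 antigen. It was at 8.16, 9.61 and 9.65 CPM in mutant collections 1, 2 and 3, and 6.29, 7.40 and 7.19 CPM in control collections 1, 2 and 3. The mutant values were all higher, and the log2 fold change, 0.39 with a standard error of 0.14, was not called (edgeR adjusted p 0.0813), with a 95% interval of 1.05 to 1.63 on the fold.

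NimC1 and NimC4 belong to a tandem cluster of Nimrod genes, which encode secreted and membrane proteins with repeated EGF-like domains, and which spans 91.3 kb of 2L from NimA to NimC4. Of the 9 other Nimrod family genes listed, including eater on 3R, 6 were tested and 1 was called, against 22.3% of all genes. The called gene was NimB5. This secreted family member was at 14.9, 17.7 and 16.4 CPM in mutant collections 1, 2 and 3, and 7.55, 10.6 and 8.86 CPM in control collections 1, 2 and 3. It rose to 16.3 ± 1.42 CPM in mutants, against 9.01 ± 1.54 CPM in controls (SD, n = 3 each; log2 fold change 0.85, adjusted p 0.00527, edgeR), and the call held in the 6 fits that left out a library. NimC4 had 2.60 ± 0.431 reads per NimB5 read in mutants and 8.54 ± 3.06 in controls (SD, n = 3 each). NimC1 lies between NimB5 and NimC4 and was not called. On the other side of NimB5, NimA, NimB1, NimB2, NimB3 and NimB4 had log2 fold changes from -0.27 to 0.16 without a call. The plasmatocyte genes NimC2, NimC3, He and eater had at most 11 reads in a library and were not tested. He and eater are defining markers of later hemocytes; eater had 1, 2 and 4 reads in mutant libraries and 0 in each control library, where the floor of 3 reads corresponds to 0.154 to 0.237 CPM of the unadjusted library total.

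**Figure D4:**
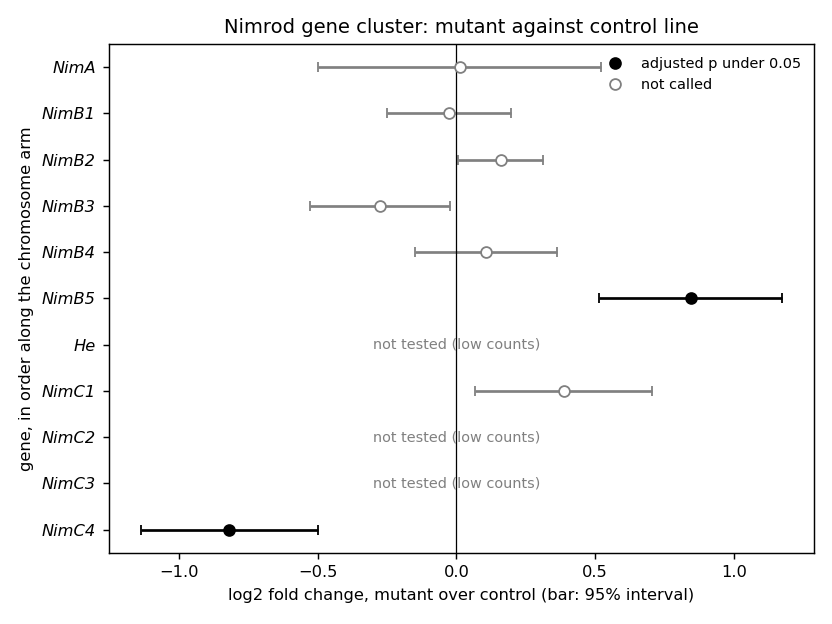
Log2 fold change, mutant over control, with its 95% interval for the genes of the Nimrod cluster in their order along the chromosome arm; filled points are called at an adjusted p under 0.05, and genes with too few reads are marked. NimB5, at 0.85, and NimC4, at -0.82, are the called genes and lie on opposite sides of 0.

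Crystal cells, the other embryonic blood cell, were followed through 8 listed genes. All 8 were tested and 5 were called, all lower in the mutant line, against 8.67% of all genes called lower. The list median was -0.32. Leaving out any 1 library left 2 to 3 calls in this list. Over all genes the same fits called 457 to 738 lower, against 913. The prophenoloxidase genes PPO1 and PPO2 encode the melanising enzymes stored in crystal cells and are the most specific members of the list. PPO2 was at 172, 207 and 182 CPM in mutant collections 1, 2 and 3, and 355, 333 and 285 CPM in control collections 1, 2 and 3. It fell to 187 ± 18.1 CPM in mutants, against 324 ± 35.9 CPM in controls (SD, n = 3 each; log2 fold change -0.79, standard error 0.10, adjusted p 0.00179, edgeR), and kept its call in the 6 fits that left out a library. PPO1 fell to 157 ± 24.1 CPM in mutants, against 225 ± 29.0 CPM in controls (SD, n = 3 each; log2 fold change -0.52, adjusted p 0.0199, edgeR), a call lost without mutant collection 1 or 3 (at most 0.0687, edgeR). The Notch pathway genes N, Ser and Su(H), which act in crystal cell fate and in most other embryonic tissues, had log2 fold changes of -0.34, -0.30 and -0.38 with edgeR adjusted p from 0.0297 to 0.0487. Among the fits that left out a library, N and Su(H) kept their calls only without mutant collection 1. Ser kept its call only without mutant collection 3 or control collection 1 (edgeR adjusted p in the other fits at most 0.135). With all libraries, Su(H) also lost its call under DESeq2's scaling in edgeR, the DESeq2 Wald test and a block for the replicate number. The lineage factor lz, with 8 to 36 reads in a library, PPO3 and peb were not called.

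Several of the 10 genes are shared with other tissues, and markers of those tissues were therefore counted. Of 9 glial markers, which bear on gcm, drpr and NimC4, 2 were called, against 22.3% of all genes. These were alrm and Eaat1, both higher in the mutant line (log2 fold changes 0.29 and 1.08, adjusted p 0.0239 and 0.00387, edgeR). The list median was 0.02, with 5 estimates higher and 4 lower. The list summed to 969 to 1018 CPM in mutant libraries and 927 to 969 CPM in control libraries, ranges that just overlap. Within these sums Eaat1 was at 84.6 ± 19.7 CPM in mutants and 39.9 ± 6.49 CPM in controls (SD, n = 3 each). The call of alrm held only without control collection 1 among the fits that left out a library (at most 0.0813, edgeR). The glial determinant repo was at 35.0 ± 0.580 CPM in mutants and 40.4 ± 3.46 CPM in controls (SD, n = 3 each; adjusted p 0.105, edgeR). Amnioserosa markers, which bear on ush, summed to 99.5 to 107 CPM in mutant libraries and 119 to 143 CPM in control libraries. Of 7 such markers 6 were tested and 2 were called, both lower in the mutant line, against 8.67% of all genes called lower. These were tup and Doc3 (log2 fold changes -0.34 and -0.64, adjusted p 0.0472 and 0.0439, edgeR). Leaving out a library ended the call of tup except without control collection 3, and that of Doc3 except without mutant collection 3, with edgeR adjusted p of at most 0.117. The defining amnioserosa gene zen was near 0, with 0 to 7 reads in a library. Their part in the falls of gcm, NimC4 and ush was not tested.

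Fat body markers, which bear on srp and the collagen genes, gave 3 calls among 5 tested of 8 listed, against 22.3% of all genes called. The lipoprotein gene apolpp was lower in the mutant line (log2 fold change -0.39, adjusted p 0.0131, edgeR), and AkhR and FASN1 were higher (0.68 and 0.85; adjusted p 0.0318 and 0.00702, edgeR). The call of AkhR held only without mutant collection 2 (at most 0.119 in the other fits, edgeR). The list summed to 3813 to 4434 CPM in mutant libraries and 4902 to 5842 CPM in control libraries, almost all of it apolpp, and the larval genes Fbp1, Lsp2 and Adh had at most 9 reads in a library. None of the 4 endoderm and midgut markers was called by edgeR or by the DESeq2 Wald test, and none had an unadjusted edgeR p under 0.05. They summed to 286 to 300 CPM in mutant libraries and 294 to 320 CPM in control libraries. The part of these tissues in the values of srp and the collagen genes was not tested.

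**Figure D5:**
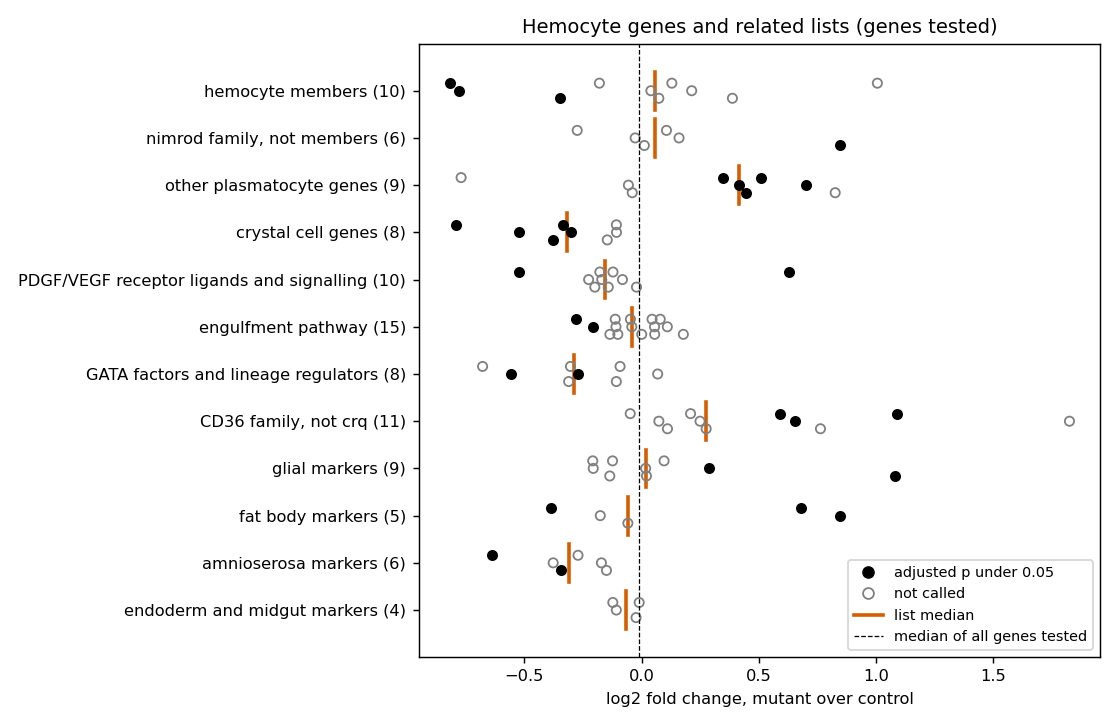
Log2 fold change, mutant over control, of every tested gene of the hemocyte set and the related lists (number tested in parentheses); filled points are called at an adjusted p under 0.05, orange bars are list medians and the dashed line is the median of all genes tested (-0.01). All 5 called crystal cell genes lie below 0 and all 5 called genes among other plasmatocyte products lie above 0.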

How the data were processed

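Poly(A) RNA of whole embryos was sequenced from one end with a directional kit, per the labels' protocols. The authors deposited read counts for 17493 gene identifiers, not normalised, and a table of 10526 genes that repeats these counts (equal for each of the 10526) and adds log2 CPM. That table also holds the authors' comparison by limma-voom, with log2 fold changes (control over mutant), p-values and test scores (t and log-odds) deposited beside it. TopHat2 2.1.1, Bowtie2 2.3.4.0, edgeR 3.14.0 and limma 3.28.21 are named, with no role, per the submitters' processing notes. The genome build, the counting tool and its use of strand are not given in the sources used here, so reads of overlapping genes are uncertain.

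Counts were filtered by filterByExpr (minimum count 10, total 15), TMM-normalised and tested with edgeR 4.0.16 (glmQLFit, glmQLFTest), under R 4.3.3. The two-sided test set mutants against controls with line as the only term and Benjamini-Hochberg adjustment over all genes tested. A standard error is the log2 fold change over the root of F, and its 95% interval uses the test's degrees of freedom. Fits were also run on simulated counts, and no result here rests on that run. Positions and exon lengths (all exons of a gene joined) come from the Ensembl release 115 annotation of BDGP6, matched by FBgn identifier. Listed names phl, Ced-6 and CG1887 were matched as Raf, ced-6 and dsb.

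The 10 genes and the other lists were chosen with earlier results of these data known, and no list was tested as a whole. Named genes are the 10, sgg and every listed gene that was called. Others are named to complete a list or singly (among them gcm2, repo, zen and ninaD), and the single choices were not fixed in advance. Alternatives were other scalings and filters, DESeq2 1.42.0, limma-voom 3.58.1, other thresholds, a block for the replicate number, and leaving out each library. Intervals and floors cover counting or replicate error only, since reads without molecular identifiers include PCR copies.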

Additional observations from a re-analysis of the deposited data

How the results depend on the processing

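Of 140 estimates for the 10 genes over 14 alternatives, 127 kept their direction and side of the threshold. Across the 6 fits that left out a library, 1 to 4 of the 10 were called (0 to 1 higher, 1 to 3 lower), against 3, while calls over all genes ran from 1295 to 2146 (838 to 1415 higher, 457 to 738 lower). These fits use fewer samples. The log2 fold change of gcm ran from -0.94 to -0.61 in them, that of ush from -0.41 to -0.29, that of Pxn from -0.25 to -0.14 and that of Hml from 0.67 to 1.45. Over the other lists in the same fits, 16 to 21 genes were called, against 27 (10 to 13 higher against 14, 5 to 8 lower against 13). An adjusted p under 0.01 left 919 genes (671 higher, 248 lower) and 1 of the 10 (lower). One under 0.1 gave 3245 genes (1856 higher, 1389 lower) and 6 of the 10, 3 of them higher. The DESeq2 Wald test gave Hml 0.99 and called it, the 1 hemocyte gene called higher. Scaling by library totals turned Pvr to -0.0021 and set crq at 47.0 CPM in mutants; the cause was not tested beyond that scaling. With the replicate number as a block, gcm (-0.78, adjusted p 0.0546 in edgeR) was not called, 2 of the 10 were, and 8 genes of the other lists were lower. Over all genes the block left 1994 calls, 666 of them lower, against 2350 and 913. Equally numbered libraries had correlations of deviations of -0.0188 to 0.0102, which does not tell whether they were handled together. Of 378 estimates for the 27 other called genes, all kept their direction and 70 lost the call. Among the lists, Pvr ligands and signalling had 4 and 5 calls under upper-quartile and library-total scaling, against 2. The CD36 family had 5 under limma-voom and under the block, against 3. Amnioserosa markers had 1 under each of these, against 2, engulfment genes 1 under DESeq2 and none under the block, against 2, and lineage regulators 1 under the block, against 2. Crystal cell genes had 4 under the DESeq2 Wald test and under the block, against 5. Calls over all genes numbered 2405 under upper-quartile and 2540 under library-total scaling, 2406 under limma-voom and 2283 under DESeq2. Of the 10 genes, Hml, gcm and NimC1 had the fewest reads, with 45 to 169 in a library.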

Other observations

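The CD36 family, to which crq belongs, encodes membrane receptors for lipids, dying cells and bacteria. Apart from crq, 13 family genes were listed, 11 were tested and 3 were called, all higher in the mutant line, with a list median of 0.28. Across all genes 22.3% were called, and 13.7% were called higher. The uncharacterised genes CG10345 and CG3829 rose to 19.0 ± 3.68 and 90.6 ± 8.48 CPM in mutants, against 8.91 ± 0.382 and 60.2 ± 2.98 CPM in controls (SD, n = 3 each; log2 fold changes 1.09 and 0.59, adjusted p 0.00257 and 0.00288 in edgeR's test). Snmp2 was at 35.8 ± 2.62 CPM in mutants and 22.6 ± 3.60 CPM in controls (SD, n = 3 each; log2 fold change 0.65, adjusted p 0.00702, edgeR). The 3 calls held whichever of the 6 libraries was left out. For ninaD, which encodes a receptor in carotenoid uptake and was singled out after its values were seen, reads numbered 49, 92 and 69 in mutant libraries 1, 2 and 3, against 5, 62 and 2 in control libraries 1, 2 and 3. Normalised, ninaD was at 3.25, 6.05 and 4.50 CPM in mutants and 0.393, 3.17 and 0.108 CPM in controls. All mutant values lay above all control values, control collection 2 just below the lowest of them. The log2 fold change, 1.83 with a standard error of 0.77, was not called by edgeR (adjusted p 0.124). In the authors' deposited table ninaD is past the threshold, at -2.91 for control over mutant on the log2 scale (adjusted p 0.0368, limma-voom). CG1887 is also past it there (adjusted p 0.0414, limma-voom) and was not called by edgeR (adjusted p 0.0524). In that comparison 5 of the family genes pass, all lower in the control line.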
